A study of Homo sapiens with 4 samples.

Results

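The genes described are 35 factors of ribosome biogenesis and RNA polymerase I transcription, measured in SK-N-BE(2) neuroblastoma cells after knockdown of TTC8. They were chosen by name as classic nucleolar genes driven by MYC-type transcription factors, and all 35 matched a row among the 64252 gene IDs of the deposited count table. All 35 also passed the filter on low counts, which kept 19610 genes. SK-N-BE(2) is an established human neuroblastoma cell line with amplified MYCN, and it formed the background of every library. The 2 shTTC8 libraries came from cells transfected with a hairpin against TTC8, a subunit of the BBSome complex of the primary cilium. The 2 shScb libraries came from cells transfected with a scramble hairpin. Neither the hairpin sequence nor the number of hairpins is given in the sources used here, so effects of lower TTC8 and off-target effects of a hairpin cannot be told apart. No time after transfection is given, and the labels do not say whether the replicates were separate cultures, and the p-values rest on the spread between libraries that may be technical replicates.

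Ribosomes are built in the nucleolus. RNA polymerase I copies the ribosomal DNA into a long precursor RNA, small nucleolar ribonucleoproteins (snoRNPs) guide its chemical modification, and large assemblies of protein factors cut and fold it into the small and the large ribosomal subunit. MYC-family proteins, which bind DNA as dimers with MAX at E-box elements, are known activators of many of these genes. In neuroblastoma with amplified MYCN that role falls largely to MYCN.

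The libraries held 38284663 and 40863047 counts in shTTC8 and 51168727 and 55331449 counts in shScb. TTC8 itself had 1130 and 1268 counts in the shTTC8 libraries and 9888 and 10398 counts in the shScb libraries. Levels below are CPM, that is counts relative to library size after TMM scaling, and a change is the log2 ratio of shTTC8 to shScb. In these units TTC8 stood at 29.1 and 30.6 CPM in shTTC8, against 196 and 191 CPM in shScb. MYCN stood at 3713 and 3820 CPM in shTTC8 and at 5661 and 5815 CPM in shScb (log2 fold change -0.61, SE 0.06, edgeR adjusted p = 3.49e-06). All 12 noradrenergic neuroblastoma markers examined were detected and passed the low-count filter. They summed to 8599 and 8846 CPM in shTTC8 and to 11447 and 11782 CPM in shScb, sums to which MYCN belongs. Among markers of fibroblasts and endothelium, 7 of 10 were tested, of which 6 were lower and 1 was higher in shTTC8. That list summed to 449 and 437 CPM in shTTC8 and to 669 and 649 CPM in shScb, with PECAM1 at 0 in every library. Blood and epithelial markers summed to 11.5 and 11.6 CPM in shTTC8 and to 25.1 and 24.2 CPM in shScb, with CD3E, HBB and CDH1 at 0. Of the 6 tested genes of that list, 2 were lower. Schwann cell and glia markers summed to 15.8 and 14.3 CPM in shTTC8 and to 37.1 and 38.7 CPM in shScb, with SOX10 at 0, and 1 of 5 tested was lower. All libraries came from 1 established cell line, so these markers do not show that such other cell types were present. Any part of cell composition in the differences below was not tested. In bulk RNA, fewer cells of a type and less RNA per cell cannot be told apart.

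Of the 35 genes, 13 fell and 3 rose in shTTC8, and 19 did not pass the test (edgeR quasi-likelihood test, adjusted over all tested genes at a threshold of 0.05). As percentages these were 37.1% lower and 8.57% higher, where 16.7% of all tested genes were lower and 15.2% were higher, together 31.9%. The genes are well expressed, and among the 8244 tested genes with a mean of at least 20 CPM the percentages were 25.2% lower and 22.3% higher. The median log2 fold change was -0.13 over the 35 genes and 0.0035 over all tested genes. The changes were small. No member reached 2-fold, and the median absolute log2 fold change was 0.25 among the 16 called members and 0.47 among all 6258 called genes. The members that fell stood at 73.6% to 88.1% of their shScb level, and those that rose stood at 113% to 119%.

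The counts of called members depended on single libraries. With shTTC8 replicate 1 left out 4 were lower and 1 was higher. The 4 are 11.4% of the members, against 11.3% of all tested genes lower in the same fit and 16.9% of those with a mean of at least 20 CPM, so the members stood near the first percentage and below the second there. With shTTC8 replicate 2 left out 6 were lower (17.1%) and 1 was higher, against 11.7% of all tested genes and 17.8% of the well expressed ones lower. With shScb replicate 2 left out, 16 were lower (45.7%) and 5 were higher, against 17.5% and 28.6% lower. Over the 11 alternative fits, 4 of the 16 called members kept their call throughout: GNL3, NAT10, WDR12 and RRP12. None of the 16 changed sign. Both shTTC8 libraries lay below both shScb libraries for 20 members and above them for 8, where the percentages over all tested genes were 32.9% and 32.5%. Exons of 9 members overlap another gene with at least 12% as many counts, and RRN3 has a copy that reaches the same percentage. Of these 10, 4 fell and none rose, and of the other 25 members 9 fell and 3 rose.

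**Figure D1:**
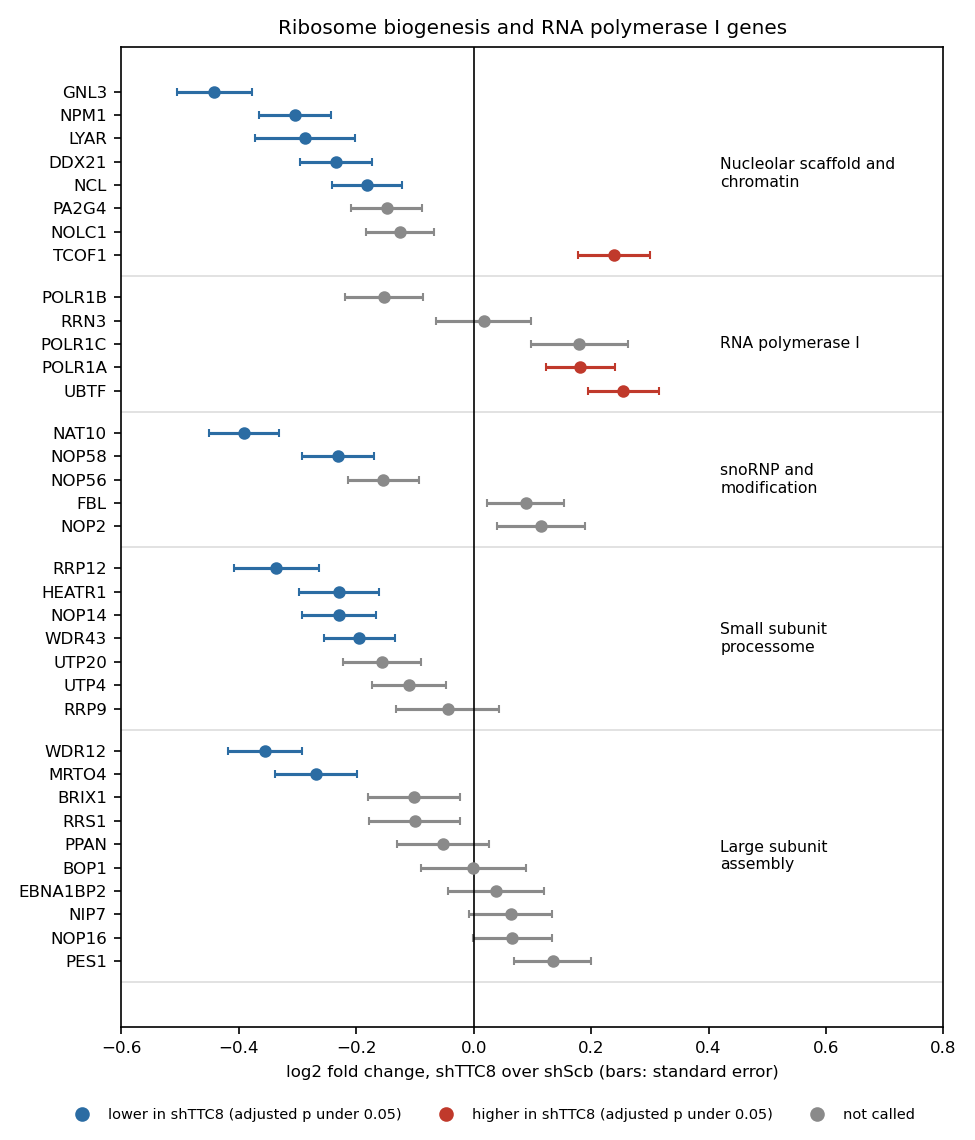
Log2 fold change of shTTC8 over shScb for each of the 35 genes, grouped by role, with bars of 1 standard error from edgeR. Called genes are coloured, and the genes that rose (TCOF1, POLR1A and UBTF) stand to the right of 0 while the 13 that fell reach -0.44 at GNL3.

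Read per length of exonic sequence, the 35 genes covered a wide range of levels over the 4 libraries. NPM1 was the highest, at 500.2 RPKM (CPM per kilobase), followed by NCL at 181 and NOLC1 at 103. These are abundant structural proteins of the nucleolus. The lowest were POLR1C at 6.04, RRP12 at 6.83 and UTP20 at 6.98 RPKM. NPM1 and NCL took 43.3% and 44.8% of the members' summed CPM in the shTTC8 libraries and 47.1% and 46.6% in the shScb libraries. The sum over all 35 was 6503 and 6603 CPM in shTTC8 and 7343 and 7374 CPM in shScb. Without NPM1 and NCL it was 3684 and 3645 CPM in shTTC8 and 3882 and 3938 CPM in shScb, so that the groups did not overlap in either sum.

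The start sites of the genes were searched for the E-box hexamer CACGTG, which reads the same on both strands and is the element that MYC-MAX dimers are known to prefer. The windows ran from 250 bases before to 50 bases after each RefSeq start site (GRCh38.p14), and 29 of the 35 genes had at least 1 window, 38 windows in all. NOLC1, NOP58, RRP12 and TCOF1 had none here. BOP1 and RRS1 lie on a chromosome that was not searched, so the search cannot say whether these genes have windows or the hexamer. The hexamer was in 15 of the 38 windows (39.5%), against 7.26% of all 35116 windows. Those 35116 were limited neither to tested genes nor to the chromosomes searched for the members. By gene it was in the windows of 14 of 29 members (48.3%), against 12.3% of the 12351 tested genes with a window and a symbol of their own. The members were chosen as genes driven by MYC-type factors, so this excess cannot test a link to such factors. The comparison genes were not matched for expression. Of its 15 occurrences at members, 10 started within 20 bases of the start site. Among tested genes' windows that held it, 14.5% had their first occurrence that close. The stretches around it are shown for members that fell and for 3 that were not called, 5′ to 3′ on the gene's strand, with the hexamer in capitals.
GNL3, chr3:52686026-52686055, plus strand: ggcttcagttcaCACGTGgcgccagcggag
NAT10, chr11:34105602-34105631, plus strand: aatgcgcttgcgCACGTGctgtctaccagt
LYAR, chr4:4290068-4290097, minus strand: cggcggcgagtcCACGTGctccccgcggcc
MRTO4, chr1:19251807-19251836, plus strand: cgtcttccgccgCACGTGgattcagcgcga
DDX21, chr10:68956604-68956633, plus strand: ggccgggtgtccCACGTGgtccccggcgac
NOP14, chr4:2963374-2963403, minus strand: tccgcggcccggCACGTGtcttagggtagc
WDR43, chr2:28894658-28894687, plus strand: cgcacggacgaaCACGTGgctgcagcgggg
UTP20, chr12:101280083-101280112, plus strand: cttttttccgtcCACGTGacccactcaggc
FBL, chr19:39846356-39846385, minus strand: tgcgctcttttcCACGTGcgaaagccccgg
PES1, chr22:30591880-30591909, minus strand: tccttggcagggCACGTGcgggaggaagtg

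Of the 14 members with the hexamer, 7 fell and none rose, with a median log2 fold change of -0.18. Of the 15 members with windows but no hexamer, 4 fell and 2 rose, with a median of -0.10. The split was smaller with DESeq2, which called 7 of the 14 and 6 of the 15 lower, and 2 of the 15 higher. In that fit 8.53% of all tested genes and 25.1% of the well expressed ones were lower. Without shTTC8 replicate 1, 2 members with the hexamer and 1 without it were lower, and without shTTC8 replicate 2 the numbers were 3 and 2. Without shScb replicate 2, 2 members with the hexamer were higher. Over the tested genes with a window, 21.3% of the 1524 with the hexamer were lower and 18.6% were higher, and of the 10827 without it 19.3% were lower and 18.0% were higher. The presence of the hexamer is a description of the letters in these windows, and no binding was measured. Other motifs were searched on both strands as well. The hexamer CACGCG was in 31.6% of the members' windows and 11.4% of all windows. The heptamer CCGGAAG, a core of ETS-type elements, was in 36.8% and 10.3%. CACGTT was in 3 of the 38 member windows (7.89%) and 5.34% of all windows, and GGGCGG in 22 (57.9%) and 45.0%. The palindromic element of the factor BANP was in only 1 member window (2.63%) and in 0.424% of all windows. Among the 12 members with CCGGAAG in a window, 1 fell and none rose, and among the 11 with CACGCG, 5 fell and 2 rose. The percentages called over all tested genes with these motifs were not computed, so these counts do not compare the motifs.

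**Figure D2:**
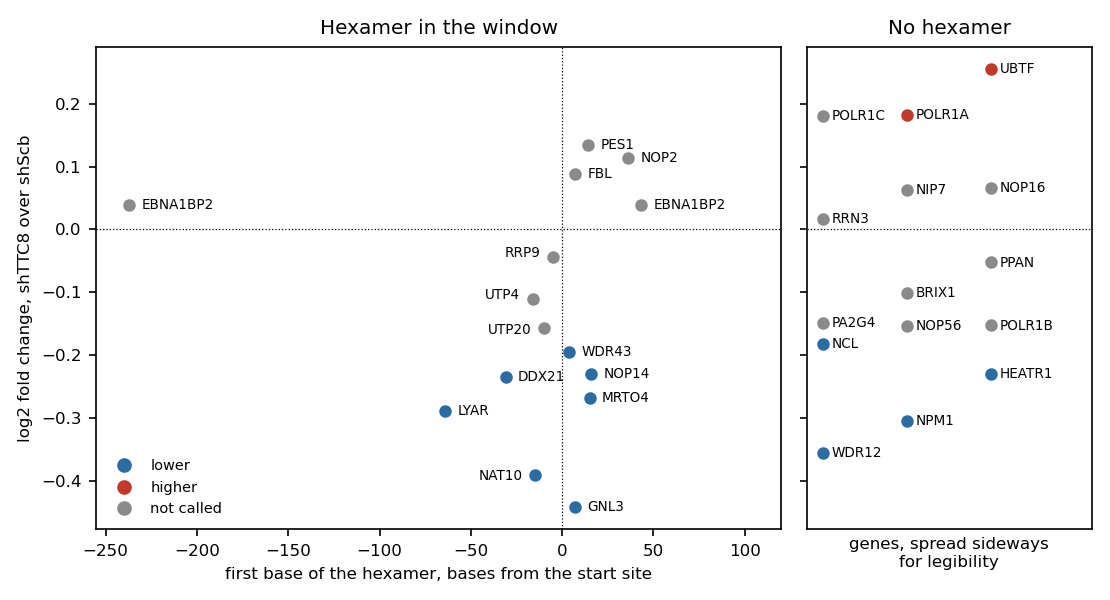
Log2 fold change of shTTC8 over shScb against the position of the first base of CACGTG, in bases from the RefSeq start site (left), and for members with windows but no such hexamer (right). Of the 14 genes on the left, EBNA1BP2 appears at 2 start sites, 7 were lower in shTTC8 and none was higher.

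Nucleolar scaffold and pre-rRNA chromatin proteins held the most members that fell, 5 of 8, with 1 that rose. Without shTTC8 replicate 1 the numbers were 1 and 0, and without shTTC8 replicate 2 they were 2 and 1. GNL3 encodes nucleostemin, a nucleolar GTPase. It stood at 69.3 and 71.2 CPM in shTTC8 and at 98.4 and 92.5 CPM in shScb. Its log2 ratio of -0.44 (SE 0.06, adjusted p = 1.05e-04 by edgeR) was the largest of the 35 in size, and the groups were well apart. GNL3 lies on chromosome 3 from 52681156 to 52694492 (GRCh38, plus strand) and shares 5 exonic positions with GLT8D1 on the other strand, which had 26.3% of its counts. NPM1, the histone chaperone nucleophosmin, had 1666 and 1761 CPM in shTTC8 and 2142 and 2090 CPM in shScb. Its log2 fold change was -0.30 (SE 0.06, edgeR adjusted p = 0.00153), with an adjusted p of 0.0607 when shTTC8 replicate 1 was left out. NPM1 has many processed copies in the genome. The one with the most counts, NPM1P27, had 1.58% of the counts of NPM1, and how reads shared with copies were counted is not known.

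LYAR, a zinc finger protein of the nucleolus, had 24.2 and 23.7 CPM in shTTC8 and 29.1 and 29.4 CPM in shScb (log2 fold change -0.29, SE 0.09). DDX21, an RNA helicase that binds RNA polymerase I transcripts and snoRNAs, had 295 and 306 CPM in shTTC8 and 366 and 341 CPM in shScb (-0.24, SE 0.06). The scaffold protein gene NCL, nucleolin, had 1153 and 1197 CPM in shTTC8 and 1320 and 1346 CPM in shScb (-0.18, SE 0.06, edgeR adjusted p = 0.0304). In each of these genes the groups did not overlap. All 3 lost their call when either shTTC8 library was left out, and NCL also when libraries were scaled by total counts alone. TCOF1 went the other way. It encodes treacle, which links RNA polymerase I transcription to pre-rRNA modification, and had 124 and 116 CPM in shTTC8, against 100.4 and 103 CPM in shScb. Its rise of 0.24 (SE 0.06, edgeR adjusted p = 0.00777) was not called when shTTC8 replicate 1 was left out (adjusted p = 0.170). The treacle-related phosphoprotein gene NOLC1 had 388 and 394 CPM in shTTC8 and 432 and 420 CPM in shScb, and the growth-regulated protein gene PA2G4 had 313 and 331 CPM in shTTC8 and 351 and 362 CPM in shScb. Neither was called (edgeR adjusted p = 0.121 for NOLC1 and 0.0763 for PA2G4), although their groups did not overlap. DESeq2 called both lower, and edgeR called PA2G4 lower without shScb replicate 1.

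None of the 5 members of the RNA polymerase I machinery fell, and 2 rose. Without shTTC8 replicate 1 only UBTF was called, and without shTTC8 replicate 2 none was, while without shScb replicate 2 POLR1B was also called lower. UBTF, the factor that binds ribosomal DNA promoters and keeps the repeats open, had 184 and 187 CPM in shTTC8 and 150 and 161 CPM in shScb. It was higher by 0.26 (SE 0.06, edgeR adjusted p = 0.00481), with an adjusted p of 0.0604 when shTTC8 replicate 2 was left out. POLR1A, the largest catalytic subunit, had 119 and 116 CPM in shTTC8 and 103 and 104 CPM in shScb. Its rise of 0.18 (SE 0.06, edgeR adjusted p = 0.0285) lost its call in 4 of the 11 alternative fits, those with either shTTC8 library left out, without a low-count filter and with the replicate number as a block. The other large catalytic subunit, POLR1B, had 76.4 and 79.4 CPM in shTTC8 and 90.3 and 83.0 CPM in shScb without passing the test (-0.15, SE 0.07). The opposite signs of POLR1A and POLR1B were not compared by a test. POLR1C, a subunit shared with RNA polymerase III, had a log2 fold change of 0.18 (SE 0.08) that was not called either, and it overlaps exons of XPO5, which had 633% of its counts. RRN3, the initiation factor TIF-IA, had 37.3 CPM in each shTTC8 library and 35.7 and 38.03 CPM in shScb, without passing the test (0.02, SE 0.08). Its partial copy RRN3P1 had 16.3% of its counts.

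Among snoRNP proteins and rRNA modification enzymes, 2 of 5 fell and none rose, and with either shTTC8 library left out only NAT10 was called. Without shScb replicate 2, NOP56 was also called lower and FBL higher. NAT10, the acetyltransferase that modifies cytidines of 18S rRNA, had 101 and 96.1 CPM in shTTC8 and 128 and 130.1 CPM in shScb. Its log2 fold change was -0.39 (SE 0.06, edgeR adjusted p = 1.60e-04), with groups that did not overlap. The hexamer shown above for NAT10 starts 15 bases before its start site. NOP58 had 114 and 110 CPM in shTTC8 and 136 and 128 CPM in shScb (-0.23, SE 0.06, edgeR adjusted p = 0.00966). NOP56 is its partner in the core of the box C/D snoRNPs, and had 115 and 121 CPM in shTTC8 and 133 and 129 CPM in shScb, with a log2 fold change of -0.15 that was not called (SE 0.06, edgeR adjusted p = 0.0650). The groups of NOP56 did not overlap, and the difference between the changes of NOP56 and NOP58 was not tested. FBL, the methyltransferase of the same particle, had 206 and 190 CPM in shTTC8 and 178 and 195 CPM in shScb, so that its groups overlapped. NOP2, an rRNA methyltransferase, had 58.3 and 55.2 CPM in shTTC8 and 50.01 and 54.8 CPM in shScb and was not called (0.11, SE 0.07).

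All 7 members of the small subunit processome, the particle that forms on the new precursor RNA, had a negative log2 fold change, and 4 of them fell. Without shTTC8 replicate 1 only RRP12 was called, without shTTC8 replicate 2 only RRP12 and NOP14 were, and HEATR1 was also not called without shScb replicate 1. Without shScb replicate 2, UTP20 was called lower as well. RRP12, an export and maturation factor, had 52.2 and 50.8 CPM in shTTC8 and 62.3 and 67.7 CPM in shScb (-0.34, SE 0.07, edgeR adjusted p = 0.00235). HEATR1, the human UTP10, had 81.5 and 82.5 CPM in shTTC8 and 101 and 90.8 CPM in shScb (-0.23, SE 0.07). NOP14 had 85.5 and 90.5 CPM in shTTC8 and 101 and 105 CPM in shScb (-0.23, SE 0.06). In all of these the shTTC8 libraries were the lower ones. HEATR1 overlaps 2095 exonic positions of LGALS8, which had 9.39% of its counts, and NOP14 shares 605 with its antisense gene NOP14-AS1, which had 19.2%. WDR43, of the UTP-A subcomplex, had 132 and 127 CPM in shTTC8 and 152 and 144 CPM in shScb (-0.19, SE 0.06), and was not called with library size alone. UTP20, UTP4 and RRP9 had log2 fold changes of -0.16, -0.11 and -0.04 and were not called, and only RRP9, the U3 snoRNP protein, had groups that overlapped. UTP4 overlaps exons of CHTF8, which had 205% of its counts. The sign of RRP9 turned when shTTC8 replicate 2 or shScb replicate 2 was left out.

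Of the 10 factors of large subunit assembly, 2 fell, none rose and 8 were not called, and with either shTTC8 library left out only WDR12 was called. Without shScb replicate 2, PES1 was called higher (0.20, edgeR adjusted p = 0.0060). WDR12 had 75.9 and 78.2 CPM in shTTC8 and 101 and 96.1 CPM in shScb, and its log2 ratio was -0.36 (SE 0.06, edgeR adjusted p = 5.62e-04). WDR12 acts in 1 complex with PES1 and BOP1, the PeBoW complex. PES1 had 161 and 151 CPM in shTTC8 and 135 and 149 CPM in shScb and was not called (0.13, SE 0.07). BOP1 had 240 and 208 CPM in shTTC8 and 208 and 240 CPM in shScb, so that its spread within each group was larger than the difference between them. With all libraries only WDR12 of the complex was called, and its difference from the others was not tested. MRTO4, which holds the place of a stalk protein on the maturing subunit, had 76.9 and 76.1 CPM in shTTC8 and 86.6 and 97.7 CPM in shScb (-0.27, SE 0.07, edgeR adjusted p = 0.00834). MRTO4 shares 14 exonic positions with EMC1 on the other strand, which had 100.1% of its counts. WDR12 shares 13 with CARF, which had 12.4% of its counts, and 193 with the pseudogene AC010900.1, which had 0.127%, both on the other strand. NOP16, NIP7 and BRIX1 overlap genes with 122%, 163% and 65.8% of their counts. The uncalled members lay between -0.10 for BRIX1 and 0.13 for PES1, and the groups of BOP1, PPAN, EBNA1BP2 and BRIX1 overlapped.

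**Figure D3:**
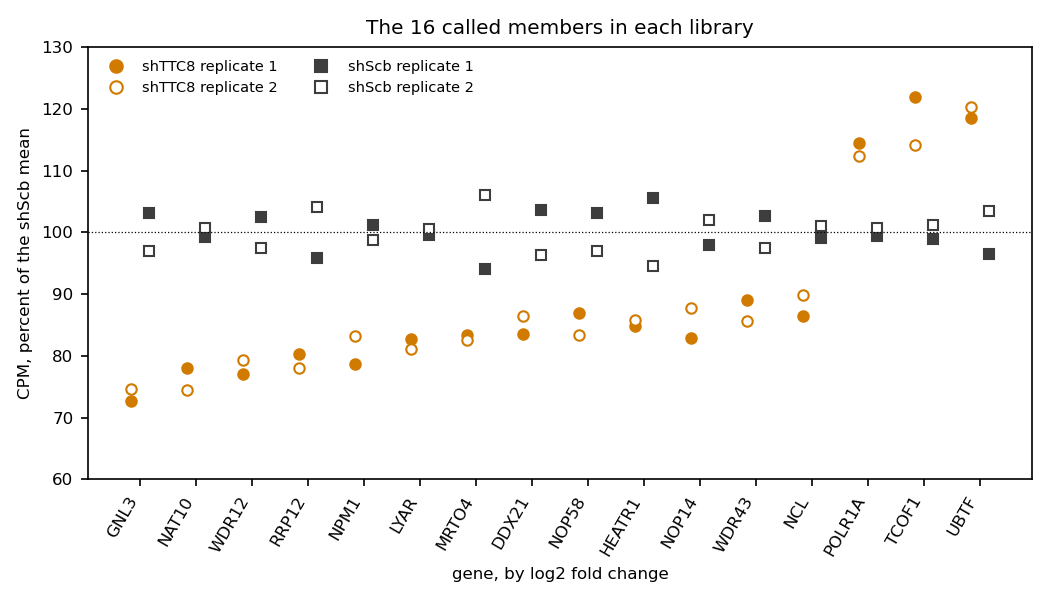
CPM of the 16 called genes in each library, as a percentage of the gene's shScb mean, with shTTC8 as circles and shScb as squares. In every one of the 16 genes the shTTC8 libraries lie on 1 side of both shScb libraries, and the 13 genes that fell have means of 73.6% to 88.1%. The 16 were picked by a test on these same libraries, so this separation largely follows from that choice.

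The rest of the pathway was described with gene lists. The percentages to set beside each list are 16.7% lower and 15.2% higher over all tested genes. Among those with a mean of at least 20 CPM they are 25.2% and 22.3%. The median log2 fold change of 162 other ribosome biogenesis genes, all of which were tested, was -0.08. Of them, 41 were lower (25.3%), near the percentage of the well expressed genes, and 23 were higher (14.2%). Without shTTC8 replicate 1 these were 20 lower (12.3%) and 11 higher, and without shTTC8 replicate 2 they were 28 (17.3%) and 14, where 11.3% and 11.7% of all tested genes were lower in the same fits and 16.9% and 17.8% of the well expressed ones. Without a low-count filter 13 were higher (8.02%). In that fit 6.47% of all tested genes and 16.6% of the well expressed ones were higher. Among 48 other factors of the large subunit, 15 were lower and 4 higher, and without shTTC8 replicate 1 these were 9 and 1. Without shScb replicate 1 there were 2 higher. RSL24D1, the placeholder for ribosomal protein eL24, had 116 and 118 CPM in shTTC8 and 196 and 181 CPM in shScb (-0.69, SE 0.06, edgeR adjusted p = 1.13e-06). MAK16, a factor of early pre-60S particles known from yeast, had 32.4 and 32.3 CPM in shTTC8 and 57.0 and 51.5 CPM in shScb (-0.74, SE 0.08). The helicase gene DDX18 and RSL1D1 changed by -0.42 and -0.36. The groups did not overlap in any of these genes. MAK16 overlaps exons of TTI2, which had 44.1% of its counts.

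Of 48 other small subunit factors, 11 were lower and 6 higher, with 4 and 2 without shTTC8 replicate 1 and 6 and 2 without shTTC8 replicate 2. Without shScb replicate 1 they were 15 and 3. The kinase gene RIOK3 had the only change of at least 2-fold among the 162, with 8.65 and 9.64 CPM in shTTC8 and 21.4 and 17.3 CPM in shScb (-1.08, SE 0.12). LTV1, a 40S export factor, was higher by 0.41 (SE 0.08). The other subunits and factors of RNA polymerase I split evenly, with 5 of 15 lower and 5 higher, or 2 and 3 without shTTC8 replicate 1. TAF1D, of the promoter selectivity factor SL1, changed by -0.55 (SE 0.06) and POLR1E by -0.42 (SE 0.07), whereas POLR2L and POLR2E, subunits shared by the nuclear RNA polymerases, were higher by 0.55 (SE 0.09) and 0.44 (SE 0.07). POLR2L and TAF1D overlap exons of other genes, which for POLR2L had 146% of its counts. Among 14 other snoRNP factors 3 were lower and 3 higher, and 1 and 1 without shTTC8 replicate 1. Without shTTC8 replicate 2 these were 2 and 1, without shScb replicate 1 they were 3 and 1, and without shScb replicate 2 they were 5 and 3. Of the core proteins of box H/ACA snoRNPs, GAR1 changed by -0.52 (SE 0.08) and NHP2 by 0.35 (SE 0.06). The RNA exosome, which trims precursor rRNA, had 5 of 15 genes lower and 1 higher, led by the nuclease gene DIS3 at 22.1 and 22.3 CPM in shTTC8 and 35.7 and 33.0 CPM in shScb (-0.63, SE 0.09). With either shTTC8 library left out 2 exosome genes were lower, and with either shScb library left out 2 were higher. NHP2 and DIS3 overlap exons of genes with up to 24.2% and 28.3% of their counts.

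Box C/D and H/ACA snoRNAs are cut from introns of host genes. Of 15 noncoding or partly coding snoRNA host genes, 11 were lower in shTTC8 and none was higher, with a median log2 fold change of -0.39. When each library was left out in turn, 10 to 12 were lower and none was higher. GAS5 had 230 and 226 CPM in shTTC8 and 368 and 363 CPM in shScb (-0.68, SE 0.06, edgeR adjusted p = 6.49e-07). SNHG1 had 180 and 185 CPM in shTTC8 and 285 and 275 CPM in shScb (-0.62, SE 0.06). ZFAS1 and SNHG16 changed by -0.46 and -0.49, and ZFAS1 overlaps exons of a gene with 15.2% of its counts. Of the 35 members, 6 also carry annotated snoRNA genes inside them, and of these NCL, GNL3, NOP58 and WDR43 fell while NOP56 and PPAN were not called. Without shTTC8 replicate 1 or 2, only GNL3 of these was called. The snoRNA genes themselves had at most 13 counts in any library, too few to compare.

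**Figure D4:**
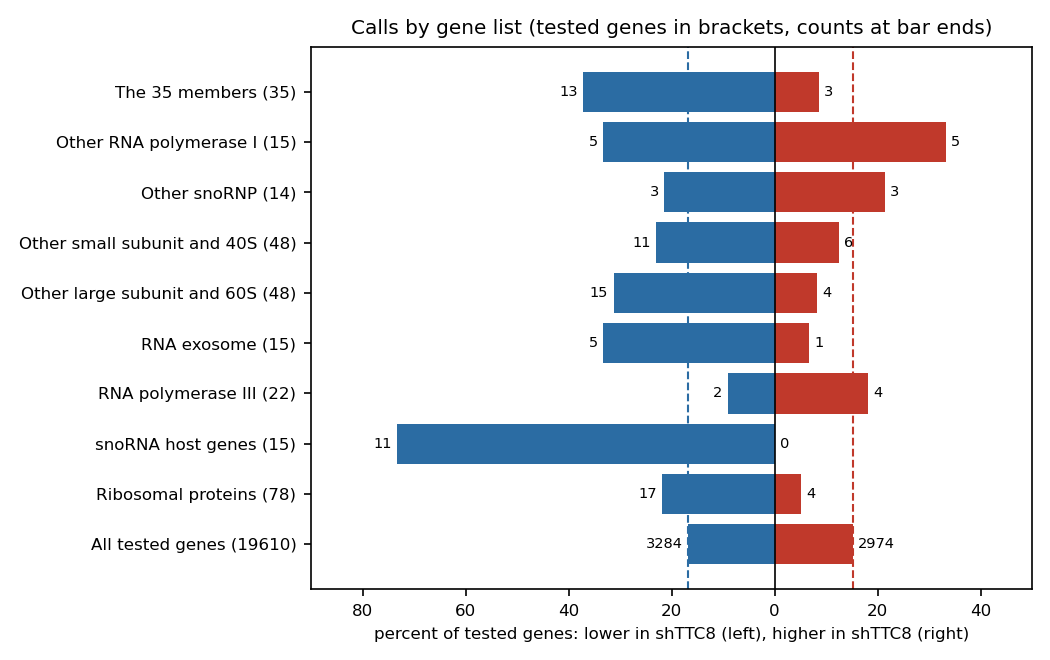
Percentage of tested genes lower (left) and higher (right) in shTTC8 in each gene list, with the number of genes at the bar ends and dashed lines at the percentages over all tested genes. The 35 members stand at 37.1% lower and 8.57% higher, and the snoRNA host genes at 11 of 15 lower and none higher.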

How the data were processed

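The deposited table gives raw counts per Ensembl gene, not normalized by the authors, for 2 shTTC8 and 2 shScb libraries. The libraries were made from TRIzol-extracted total RNA with an Illumina TruSeq RNA kit, per the labels' protocols. The submitters' processing notes name the aligner HISAT2 2.2.0 and the build hg38. How reads were counted, with which strand setting and annotation, is not given in the sources used here, and reads of overlapping genes and near-identical copies may be shared.

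The test was edgeR 4.0.16 (R 4.3.3): filterByExpr, TMM scaling, robust quasi-likelihood F test, two-sided, Benjamini-Hochberg adjustment over 19610 genes. A standard error is the fold change (log2) divided by the square root of F. The common biological coefficient of variation was 10.5%. Symbols, positions and exonic lengths came from a gene name table and GENCODE 29 (GRCh38). The test was tried on simulated data.

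The members and gene lists were chosen with earlier results of these data known, and the motifs after the fold changes were seen. Any member could be named, besides TTC8, MYCN and up to 4 called genes of each list by smallest p. Alternatives were scaling by RLE or by library size alone, no filter, 1 CPM in 2 libraries, DESeq2 1.42.0, limma-voom (limma 3.58.1), a replicate block, each library left out in turn, and an adjusted p threshold of 0.01. Replicates differed beyond sampling noise (chi-square per degree of freedom 6.40 in shTTC8 and 11.4 in shScb).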

Additional observations from a re-analysis of the deposited data

How the results depend on the processing

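With 1 library left out in turn, 4 to 16 members were lower and 1 to 5 higher, and 20 to 50 other ribosome biogenesis genes were lower and 11 to 28 higher. A fit that leaves 1 library in a group assumes that it varies like the others. At an adjusted p threshold of 0.01, 8 members were lower, and 10 other ribosome biogenesis genes were higher. The percentages over all tested genes at that threshold were not computed, so these counts cannot be set against a background. Without a low-count filter, 13 other ribosome biogenesis genes were higher (8.02%), against 14.2% in the main fit. The percentage of all tested genes that were higher moved as well, from 15.2% in the main fit to 6.47%. With library size alone the members' median log2 fold change was -0.084 and that of all tested genes was 0.045. In the main fit these were -0.126 and 0.0035, so both medians moved up. The samples share only a replicate number: deviations of same-numbered libraries correlated at r = 0.0255 over 19610 genes, which are not independent replicates, and with the replicate block 13 members were lower and 2 higher. Signs turned for 5 uncalled members only: BOP1 was at 0.0016 with RLE scaling and 0.041 with library size alone, and RRN3 at -0.0092 without a filter. With 1 library left out, the log2 fold change ran from -0.031 to 0.062 for RRN3, from -0.151 to 0.067 for RRP9, from -0.111 to 0.107 for BOP1, from -0.140 to 0.031 for PPAN and from -0.071 to 0.154 for EBNA1BP2. The cause was not tested. With 2 libraries a group, 19 uncalled members, with SEs of up to 0.09, are not shown to be equal between the groups.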

Other observations

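RNA polymerase III makes 5S rRNA and transfer RNAs. Of its 22 genes 2 were lower (9.09%) and 4 higher (18.2%), with a median log2 fold change of -0.03. These counts were 2 and 2 without shTTC8 replicate 2 and 4 and 4 without shScb replicate 1. The subunit gene POLR3K was higher, at 38.8 and 36.04 CPM in shTTC8 and 25.5 and 27.4 CPM in shScb (0.50, SE 0.09), and so was MAF1, a repressor of this polymerase, at 138 and 140.1 CPM in shTTC8 and 102 and 118 CPM in shScb (0.35, SE 0.07). GTF3C4 and GTF3C2, of the assembly factor TFIIIC, changed by -0.31 and -0.26. POLR3K overlaps exons of SNRNP25, which had 123% of its counts.

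Over all tested genes 16.7% were lower and 15.2% higher, and among those with a mean of at least 20 CPM 25.2% and 22.3%. The genes for cytosolic ribosomal proteins numbered 78, with 17 lower (21.8%) and 4 higher (5.13%), and their median log2 fold change was -0.02. These counts turned on single libraries, with 3 lower and 3 higher without shTTC8 replicate 1, 9 and 2 without shTTC8 replicate 2, 22 and 4 without shScb replicate 1, and 15 and 17 without shScb replicate 2. The percentages over all tested genes moved between these fits too, so the counts cannot be read against the main-fit percentages above. RPS7 had 1143 and 1315 CPM in shTTC8 and 1688 and 1703 CPM in shScb (-0.46, SE 0.07). RPS29 had 445 and 428 CPM in shTTC8 and 307 and 357 CPM in shScb (0.40, SE 0.07). These genes have many near-identical copies, so their values are uncertain. In the MAX network, where MXD proteins compete with MYC-type factors for MAX, 3 of 10 tested genes were higher (30%) and 2 lower (20%). Without shTTC8 replicate 2, 2 were higher and 1 lower. MXD1 had 16.97 and 16.94 CPM in shTTC8 and 11.9 and 12.1 CPM in shScb (0.50, SE 0.10), and MXD4 was higher by 0.34 (SE 0.06). MXD1 overlaps exons of SNRNP27, which had 227% of its counts.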
